A study of Mus musculus with 6 samples.

Results

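The cells described here are the CD8 T cells that the depositors assigned to cluster 8, 1695 of 26698 sorted cells from MB49 tumours, chosen by the cluster number in the deposited cell metadata. MB49, a line of mouse bladder cancer cells, was grown under the skin of wild-type C57BL/6 hosts. The labels give 3 male and 3 female hosts, inoculated at 6 weeks of age with the same number of tumour cells (the characteristics give 6 to 8 weeks), and tumours taken on day 10. Live CD3+ CD8+ CD4- cells were sorted and put through a 10x Genomics 3' single-cell kit. Cell names carry library numbers 1, 3 and 4 for males and 2, 5 and 6 for females, and each library was taken as 1 replicate. The labels give no treatment or mutant allele in either group.

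CD8 T cells kill target cells by releasing granules that hold perforin, which opens membranes, and granzymes, serine proteases that start cell death inside the target. In tumours, cells that keep meeting antigen can become exhausted: they carry inhibitory receptors such as PD-1 (Pdcd1) and TIM-3 (Havcr2), lose the transcription factor TCF-1 (Tcf7) that marks the stem-like pool, and may still hold cytotoxic granules. Mice have a larger granzyme set than humans. Gzmc, Gzmd, Gzme, Gzmf and Gzmg lie together with Gzmb in 1 gene cluster, and the 5 have been linked to strongly stimulated killer cells.

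Male libraries 1, 3 and 4 held 233, 237 and 408 cells of cluster 8, and female libraries 2, 5 and 6 held 186, 465 and 166. Their summed counts came to 26711086 unique molecular identifiers (UMIs, counted molecules), with 2624302 to 7812767 per library. The cells had a median of 13987 UMIs and 3219 genes in cluster 8, against 9163 UMIs and 2606 genes in cluster 0, and a median mitochondrial share of 3.70% against 3.95%. Cluster 8 made up 3.70% (95% exact binomial interval 3.24 to 4.19), 7.22% (6.36 to 8.16) and 5.70% (5.18 to 6.26) of the cells of male libraries 1, 3 and 4. It made up 6.43% (5.56 to 7.39), 9.41% (8.61 to 10.3) and 7.83% (6.72 to 9.05) of female libraries 2, 5 and 6. The sexes overlapped in these shares. They were not tested, because Gzma, a gene that sets the cluster apart, stood apart between the sexes within it. The intervals cover counting error only. The same barcode was found in several libraries for 84 barcodes, and 12 cells of cluster 8 carried one of these.

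The working description of these cells as granzyme-rich and exhausted was set against its markers. Levels are counts per 1000000 UMIs (CPM) of the summed cells of a cluster in a library, scaled by edgeR's TMM factors, and averaged over 6 libraries with their SD. Gzma, which encodes granzyme A, averaged 2358 ± 1121 CPM in cluster 8 and 477 ± 187 CPM in cluster 0, and ranked 2 of the 11 clusters. Havcr2 averaged 454 ± 44.2 CPM in cluster 8 and 427 ± 65.3 CPM in cluster 0, and Pdcd1 469 ± 92.9 CPM and 523 ± 75.9 CPM. Cluster 8 ranked 2 for Havcr2 and 3 for Pdcd1 among the 11. In the cells themselves, Havcr2 had a UMI in 95.1% of cluster 8 cells and in 4.78% of cluster 7 cells, which express naive or memory genes. The levels of both receptors overlapped between clusters 8 and 0. Tox, a transcription factor of exhausted cells, ran the other way, at 26.0 ± 6.32 CPM in cluster 8 and 52.5 ± 15.2 CPM in cluster 0, and was lowest in cluster 8 of all 11. Cd8a averaged 843 ± 100 CPM in cluster 8, and Cd4, which the sort removes, 0.500 ± 0.475 CPM.

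What set cluster 8 apart from cluster 0 most was the granzyme set of chromosome 14. Gzmf averaged 3247 ± 1132 CPM in cluster 8 and 40.4 ± 23.8 CPM in cluster 0, 80.3 times the level, and Gzmc, Gzmd and Gzme 46.2, 39.5 and 32.3 times. Clusters were made from the expression of these same cells, so all differences between clusters are descriptions without a test. Gene by gene, a log2 ratio of CPM + 1 was taken in each library and averaged over the 6. A gene counts as set apart at a mean of at least 1 in size with the same direction in 6 of 6 libraries. Of 8320 genes with a mean of at least 5 CPM over both clusters, 96 (1.15%) were set apart as higher in cluster 8 and 85 (1.02%) as lower.

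Gzmf had a lowest, median and highest library of 1683, 3296 and 4688 CPM in cluster 8, against 9.53, 47.3 and 66.9 CPM in cluster 0, a mean log2 ratio of 6.52 ± 1.14 (SD, n = 6). Every library of cluster 8 stood above every library of cluster 0. For Gzmc the values were 527, 1153 and 2536 CPM in cluster 8 and 16.1, 23.0 and 64.3 CPM in cluster 0 (log2 ratio 5.44 ± 0.94). Gzmd had 365, 752 and 1439 CPM in cluster 8 and 2.81, 16.1 and 43.4 CPM in cluster 0 (5.58 ± 1.72). Again no library of cluster 8 fell among those of cluster 0 for either gene. Gzme had 238, 469 and 839 CPM in cluster 8 and 1.87, 16.0 and 27.9 CPM in cluster 0 (5.31 ± 1.67). Gzmg varied far more within cluster 8, with 198, 14.2 and 11.4 CPM in male libraries 1, 3 and 4 and 4.71, 25.9 and 690.7 CPM in female libraries 2, 5 and 6, against a lowest, median and highest library of 0.234, 0.643 and 1.56 CPM in cluster 0 (4.58 ± 2.57). Female library 6 and male library 1 stood above the other 4. The 5 genes are close copies of one another, and how the authors' counting shares reads between such copies is not stated, so the split among them is uncertain.

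Of the granule genes outside that set, Gzmb, which encodes granzyme B, had 6570, 8128 and 14742 CPM in cluster 8, against 1922, 2885 and 6057 CPM in cluster 0 (log2 ratio 1.54 ± 0.26). Gzma had 950.3, 2479 and 3591 CPM in cluster 8 and 305, 436 and 777 CPM in cluster 0 (2.22 ± 0.43). Neither gene overlapped between the clusters. Prf1, the perforin gene, had 339, 532 and 748 CPM in cluster 8 and 197, 262 and 410.1 CPM in cluster 0 (0.97 ± 0.21), higher in 6 of 6 libraries with overlapping ranges. Ctsw, a protease of cytotoxic granules, was higher in 6 of 6 (0.62 ± 0.29). Not all of the granule list was higher. Gzmk, the granzyme K gene, differed by -0.05 ± 0.31, Nkg7 by -0.16 ± 0.09 and Fasl, the death ligand, by -0.19 ± 0.16. Srgn, the proteoglycan that packs granzymes, was lower in 6 of 6 libraries (-0.62 ± 0.09), as was Lamp1, a granule membrane protein (-0.86 ± 0.31). In the list of granzymes, perforin and granule proteins, 17 of 18 members passed the level filter, 9 were higher in 6 of 6 libraries and 4 lower, with a median log2 ratio of 0.62. Over all 8320 genes, 13.8% were higher and 20.3% lower in 6 of 6, with a median of -0.03.

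**Figure D1:**
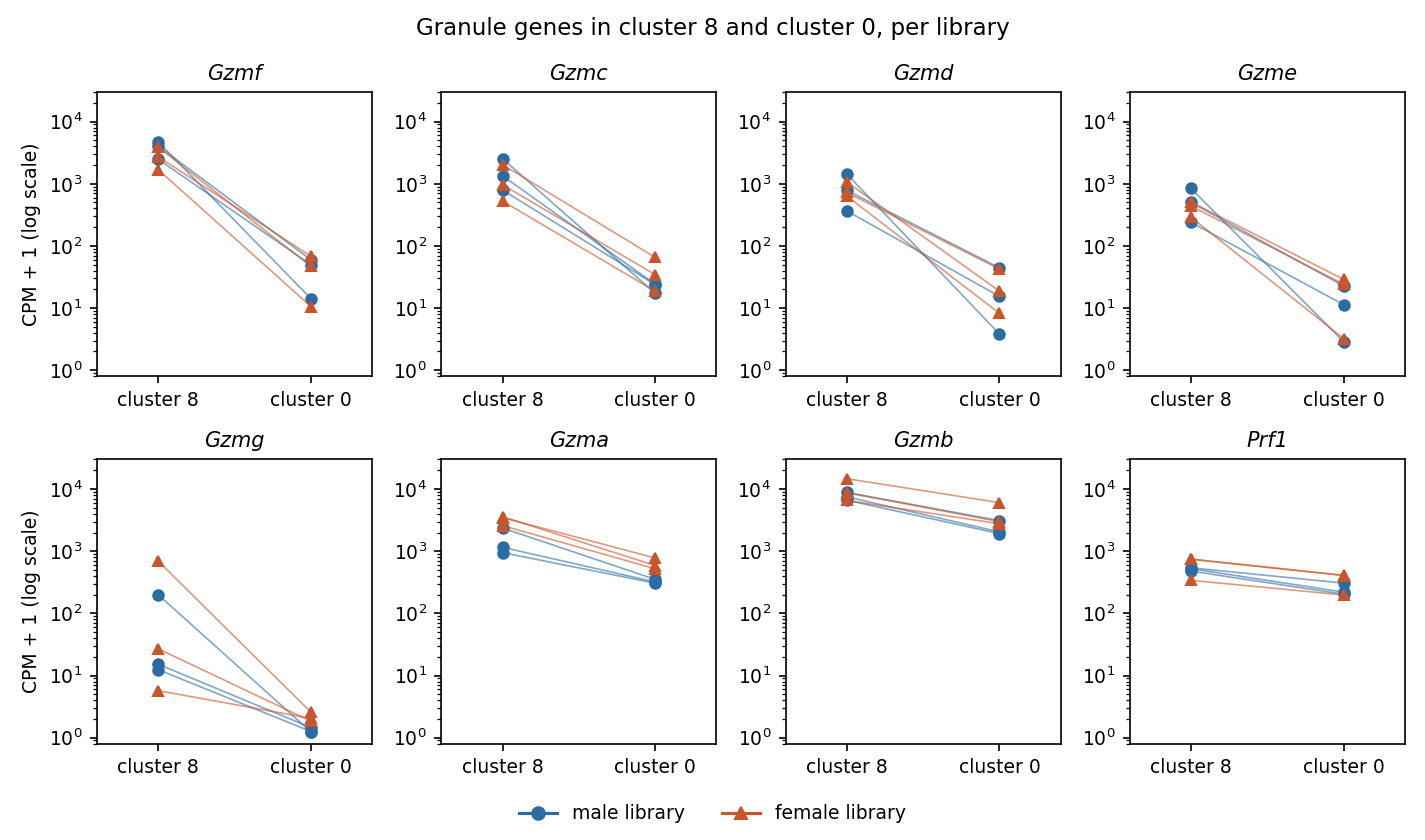
Level of 8 granule genes in cluster 8 (left) and cluster 0 (right) of each panel, as CPM + 1 on a log axis, 1 point per library, circles male and triangles female, lines joining the 2 clusters of a library. Gzmf, Gzmc, Gzmd and Gzme stand between 238 and 4688 CPM in cluster 8 and at no more than 66.9 CPM in cluster 0, whereas Prf1 overlaps.

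The 5 genes are neighbours on the minus strand of chromosome 14 (mm10, with positions from GENCODE M21). Gzme lies at chr14:56117626-56120625, Gzmd at chr14:56129556-56132608, Gzmg at chr14:56156582-56159579, Gzmf at chr14:56205263-56211417 and Gzmc at chr14:56231441-56234656, with Gzmb next at chr14:56258838-56262260. Because they were the genes furthest apart between the clusters, the 200 bases before each start site are shown, read 5′ to 3′ on the strand of the gene (RefSeq, GRCm38.p6). Start sites here are those of RefSeq and can differ from the GENCODE positions. The windows of Gzmf and Gzmd overlap the GENCODE genes by a few bases. Capitals mark the RUNX motif TGTGGT or its reverse complement.
Gzmc, chr14:56234658-56234857: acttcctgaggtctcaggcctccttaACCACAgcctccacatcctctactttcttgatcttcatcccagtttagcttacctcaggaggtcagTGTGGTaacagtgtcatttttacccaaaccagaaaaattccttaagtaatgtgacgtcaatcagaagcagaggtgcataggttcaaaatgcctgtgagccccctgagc
Gzmf, chr14:56211408-56211607: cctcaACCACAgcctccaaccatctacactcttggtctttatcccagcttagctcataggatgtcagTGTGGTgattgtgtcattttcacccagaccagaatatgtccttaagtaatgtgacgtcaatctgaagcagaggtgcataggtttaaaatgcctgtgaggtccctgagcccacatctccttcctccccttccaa
Gzmg, chr14:56159580-56159779: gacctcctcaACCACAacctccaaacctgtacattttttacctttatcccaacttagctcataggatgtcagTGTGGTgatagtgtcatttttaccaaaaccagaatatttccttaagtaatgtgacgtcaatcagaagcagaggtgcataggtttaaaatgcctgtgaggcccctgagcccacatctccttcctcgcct
Gzmd, chr14:56132594-56132793: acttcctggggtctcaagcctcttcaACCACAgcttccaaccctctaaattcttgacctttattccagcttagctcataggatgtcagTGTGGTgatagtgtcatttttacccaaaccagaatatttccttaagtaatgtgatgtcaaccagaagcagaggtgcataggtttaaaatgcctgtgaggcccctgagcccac
Gzme, chr14:56120626-56120825: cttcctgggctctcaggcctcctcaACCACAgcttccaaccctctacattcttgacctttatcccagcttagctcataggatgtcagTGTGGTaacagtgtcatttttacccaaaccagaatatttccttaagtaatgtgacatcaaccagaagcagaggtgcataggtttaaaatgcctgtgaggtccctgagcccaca
All 5 windows hold the RUNX letters at 2 places, once on each strand, and 11.2% of the 32851 promoter windows of this length in the RefSeq table hold them at least once and 0.868% at least at 2 places. In Gzmf the places are bases -195 to -190 and -133 to -128, and in Gzmc -174 to -169 and -108 to -103, counted back from the start site. The windows are not independent examples, since aligned pairs were 68.4% to 94.0% identical, the closest being Gzmd and Gzme. Searched on both strands, the letters of an AP-1 motif (TGANTCA, in 5.48% of all windows), a T-box motif (GGTGTGA, 2.64%), a STAT motif (TTCNNNGAA, 5.49%) and the core of the hypoxia response element (ACGTG, 14.0%) are in 0 of the 5 windows. Other forms of these motifs were not searched for, so the 0 covers only the letters given. A match is a description of letters, not a site in use.

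Cells were thinned to 2000 UMIs, so that depth was equal, and the 2383 cells with fewer, 7 of them in cluster 8 and 38 in cluster 0, were left out of all thinned shares. After this, 56.2% of cluster 8 cells had a UMI of at least 1 of the 5 genes, against 8.78% of cluster 0 cells. In cluster 7, with naive or memory genes, the thinned share was 6.00%, which gives the level of cells that should lack these RNAs. Before thinning the shares were 76.5% in cluster 8, 25.4% in cluster 0 and 18.6% in cluster 7, at medians of 13987, 9163 and 7465 UMIs. The libraries ranged widely. Male libraries 1, 3 and 4 had 53.1%, 53.6% and 61.0% of thinned cluster 8 cells with at least 1 of the genes, and female libraries 2, 5 and 6 had 36.2%, 58.3% and 68.5%. Female library 2 was the lowest and female library 6 the highest, so the sexes overlapped. At least 3 of the 5 were found in 21.2% of thinned cluster 8 cells and in 0.228% of thinned cluster 0 cells. The number of genes per cell shares the uncertainty of counting among close copies.

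UMIs counted for these genes were found together. Among thinned cluster 8 cells with a UMI of Gzmf, 65.1% also had Gzmc, against 19.1% of those without Gzmf (means over libraries), and the order held in 6 of 6 libraries. The same comparison gave 45.6% and 9.39% for Gzmd and 43.5% and 8.04% for Gzme, in 6 of 6 libraries each. Gzma did not follow Gzmf in this way, at 37.8% in cells with Gzmf and 33.4% in cells without, higher in 3 of 6 libraries. Havcr2 gave 57.1% and 54.3%, also in 3 of 6. Ifitm1, an interferon-inducible membrane protein gene, did follow, at 71.9% and 46.7% in 6 of 6 libraries. Gzmb had a UMI in 97.3% of thinned cluster 8 cells and 78.7% of thinned cluster 0 cells, and 39.1% in cluster 7. Free RNA in the droplets can add to such shares, and a share near that of cluster 7 is read as background.

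**Figure D2:**
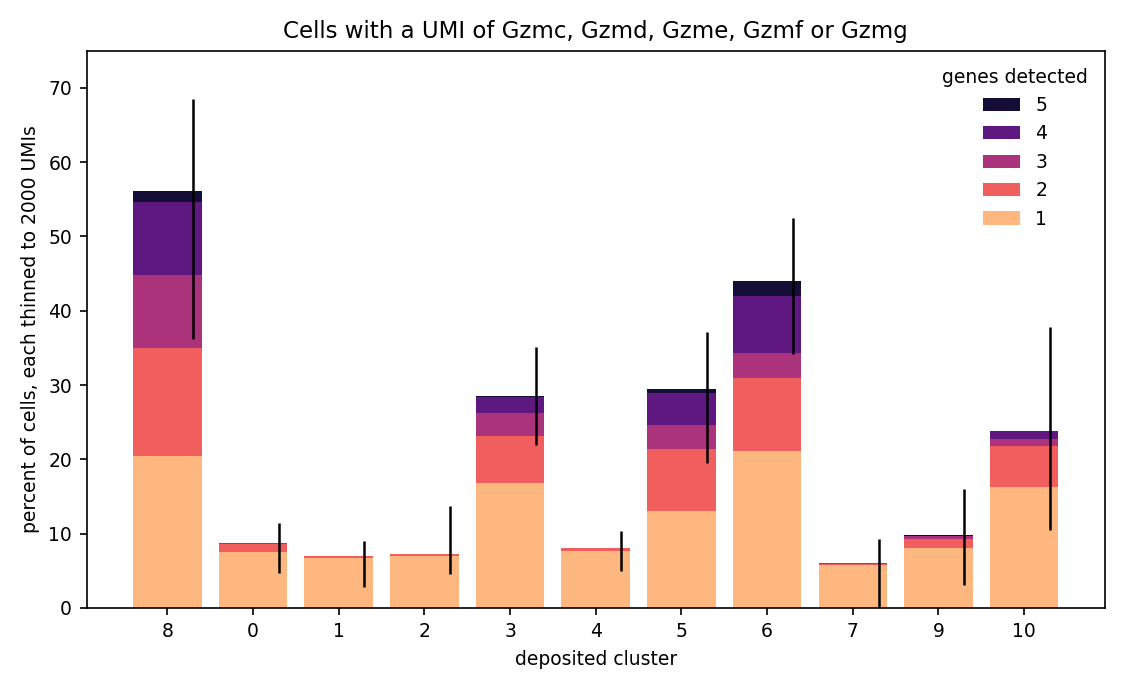
Percent of cells with a UMI of 1 to 5 of the genes Gzmc, Gzmd, Gzme, Gzmf and Gzmg, by deposited cluster, with cluster 8 first, in cells thinned to 2000 UMIs, which leaves 785 of 2034 cells in cluster 6 and 294 of 1137 in cluster 10. Bars pool the libraries and black lines span the lowest to the highest library. The genes are close copies, so the number of genes per cell is uncertain. Cluster 8 reaches 56.2%, and clusters 6, 5 and 3 follow at 43.9%, 29.5% and 28.6%.

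The interferon-inducible transmembrane genes Ifitm1, Ifitm2 and Ifitm3 on chromosome 7, known from defence against virus entry, were also set apart. Ifitm1 had 1542, 2292 and 3657 CPM (lowest, median and highest library) in cluster 8, against 259, 508 and 826 CPM in cluster 0 (log2 ratio 2.32 ± 0.80). Ifitm2 had 512, 674 and 1062 CPM in cluster 8 and 57.8, 155 and 192 CPM in cluster 0 (2.39 ± 0.63). Ifitm3 had 156, 270.1 and 393 CPM in cluster 8 and 20.4, 45.6 and 61.0 CPM in cluster 0 (2.65 ± 0.77). None of the 3 overlapped between the clusters, and each was highest in cluster 8 of all 11, Ifitm3 by 1.98 times the next. Ifitm10, the remaining member measured, differed by 0.40 ± 0.31. The wider list of interferon-stimulated genes did not share this: of 14 members that passed, 1 was higher in 6 of 6 libraries (Isg20, an RNA exonuclease, 1.12 ± 0.31) and 3 were lower, with a median of 0.04.

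In the list of S100, annexin and galectin genes, all 13 members that passed the level filter (of 15 listed) were higher in 6 of 6 libraries, with a median log2 ratio of 0.46. S100a4, a calcium-binding protein linked to cell movement, had 1722, 2002 and 2846 CPM in cluster 8 and 487, 976 and 1233 CPM in cluster 0 (1.24 ± 0.46). The ranges did not meet. Vim, the intermediate filament vimentin, differed by 1.10 ± 0.18, S100a6 by 0.94 ± 0.27 and Anxa1, an annexin with anti-inflammatory roles, by 1.40 ± 0.81. Among actin cytoskeleton genes, 8 of 16 were higher in 6 of 6 and 0 lower, led by Capg, a filament-capping protein (0.85 ± 0.29). Itga1, which pairs to a collagen-binding integrin, averaged 27.2 ± 11.3 CPM in cluster 8 and 10.7 ± 4.91 CPM in cluster 0 (1.29 ± 0.74). Its list, tissue residency and adhesion, did not share this direction: 2 of 10 members were higher in 6 of 6 libraries and 4 lower, among them the integrin chain gene Itga4 (-1.07 ± 0.30), the hyaluronan receptor gene Cd44 (-0.52 ± 0.15) and Cd69, a retention receptor gene (-0.46 ± 0.25).

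Some receptors better known from natural killer cells were higher in cluster 8. In the list of killer lectin and natural killer receptors, 4 of 11 members that passed were higher in 6 of 6 libraries and 2 lower, and the list summed to 2561 CPM in cluster 8 and 2793 CPM in cluster 0. Klra5, a Ly49 family receptor gene, had 21.4, 44.3 and 48.5 CPM in cluster 8, against 1.17, 1.97 and 3.91 CPM in cluster 0 (3.69 ± 0.40), with no overlap. Cd244, the 2B4 receptor, had 32.6, 52.5 and 91.0 CPM in cluster 8 and 4.44, 5.66 and 16.9 CPM in cluster 0 (2.86 ± 0.51). Fcer1g, a signalling adaptor, had 22.9, 100.1 and 235 CPM in cluster 8 and 4.05, 13.8 and 16.0 CPM in cluster 0 (2.64 ± 1.16). Fcer1g was uneven between libraries, high in male library 1 and female libraries 5 and 6 (162 to 235 CPM) and low in the other 3 (22.9 to 38.0 CPM). Klra genes are close copies too, with the same uncertainty of counting. Klrc1, which encodes the inhibitory receptor NKG2A, was lower in 6 of 6 (-0.27 ± 0.14). Il2ra, the high-affinity interleukin-2 receptor chain, averaged 173 ± 38.7 CPM in cluster 8 and 85.6 ± 17.2 CPM in cluster 0 (1.00 ± 0.28).

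Single genes of detoxification and metal binding, and a part of the hypoxia list, were higher in cluster 8. Gstm5, a glutathione transferase, had 6.90, 19.5 and 46.0 CPM in cluster 8 and 1.40, 2.72 and 5.60 CPM in cluster 0 (2.44 ± 1.10), and Gstt1, another, differed by 1.33 ± 0.29. The metallothioneins Mt1 and Mt2, which bind zinc and copper, differed by 1.61 ± 0.30 and 1.98 ± 0.34, and neither overlapped. They belong to a metallothionein and oxidative stress list with 3 of 9 members higher in 6 of 6, 0 lower and a median of 0.08. Epas1, which encodes the hypoxia-inducible factor HIF-2 alpha, averaged 41.6 ± 9.38 CPM in cluster 8 and 14.2 ± 3.60 CPM in cluster 0 (1.49 ± 0.52). In the hypoxia list, 6 of 12 members that passed were higher in 6 of 6 libraries and 1 was lower, with Ndrg1 at 1.09 ± 0.37, Egln3, an oxygen sensor of HIF, at 0.89 ± 0.39, and Bnip3, a mitochondrial protein induced in low oxygen, at 0.65 ± 0.12. Of 16 glycolysis genes 13 were higher in 6 of 6 and 0 lower, at small sizes: the glucose transporter gene Slc2a3 differed by 0.57 ± 0.25 and the enzyme genes Pgk1 and Aldoa by 0.32 ± 0.09 and 0.30 ± 0.08. In oxidative phosphorylation 13 of 25 were higher and 2 lower, with a median of 0.11.

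On the lower side stood genes of stem-like and resting T cells. Tcf7 had 4.03, 6.66 and 14.9 CPM in cluster 8 and 9.03, 23.4 and 48.5 CPM in cluster 0 (log2 ratio -1.44 ± 0.51), lower in 6 of 6 libraries although the ranges overlapped. Ccr7, the homing receptor for lymph nodes, had 3.40, 12.9 and 16.1 CPM in cluster 8 and 32.9, 68.1 and 127 CPM in cluster 0 (-2.81 ± 0.64). Slamf6, a surface receptor of the progenitor pool, had 6.04, 16.6 and 33.9 CPM in cluster 8 and 51.3, 62.8 and 82.9 CPM in cluster 0 (-1.88 ± 0.65). Ccr7 and Slamf6 did not overlap between the clusters. Of 14 stem-like and progenitor genes that passed the filter (17 listed), 0 were higher in 6 of 6 libraries and 10 lower, with a median of -1.06. Bach2, a repressor of effector genes, was among them at -1.65 ± 0.51, and Xcl1, a chemokine for dendritic cells, at -1.90 ± 0.94.

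Response genes of the T cell receptor were lower together. Nr4a1, an orphan nuclear receptor switched on by receptor signalling, had 13.6, 30.5 and 46.7 CPM in cluster 8 and 67.6, 91.3 and 102 CPM in cluster 0 (-1.56 ± 0.46), with no overlap. Egr2 differed by -1.32 ± 0.47, Irf4 by -1.02 ± 0.37 and Spry1, an inhibitor of growth factor signalling, by -1.70 ± 0.24. In that list 13 of 18 genes were lower in 6 of 6 libraries and 1 was higher, Il2ra. Immediate early genes, which dissociation of tissue can also raise, were lower in 10 of 13 and higher in 1, with Fos at -1.29 ± 0.28 and Dusp1 at -0.91 ± 0.21. The part of dissociation in these values was not tested. Chemokine genes were lower in 4 of 6 and higher in 0: Ccl5 had 1480, 2472 and 3955 CPM in cluster 8 and 5535, 7304 and 7941 CPM in cluster 0 (-1.48 ± 0.36), and Ccl4 and Ccl3 differed by -1.18 ± 0.20 and -1.11 ± 0.46. Among TGF-beta response genes 7 of 9 were lower and 0 higher, with Tgif1 at -1.35 ± 0.37 and Pmepa1 at -1.28 ± 0.20.

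The inhibitory receptors did not differ in 1 direction. Of 18 that passed, 2 were higher in 6 of 6 libraries, Cd244 and Entpd1, the ectonucleotidase CD39 (0.71 ± 0.13), and 7 were lower, with a median of -0.13. Lag3 differed by -0.43 ± 0.17 and Cd160 by -0.51 ± 0.23, both lower in 6 of 6, and Cd200 by -1.26 ± 0.64. Ctla4, at -0.09 ± 0.09, Tigit, at -0.30 ± 0.49, and Pdcd1, at -0.17 ± 0.16, were not on 1 side in all libraries. Of the transcription factors of effector and exhausted cells, 4 of 19 were higher in 6 of 6 and 10 lower, among the lower Tox (-0.98 ± 0.38) and Zeb2 (-0.97 ± 0.13).

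**Figure D3:**
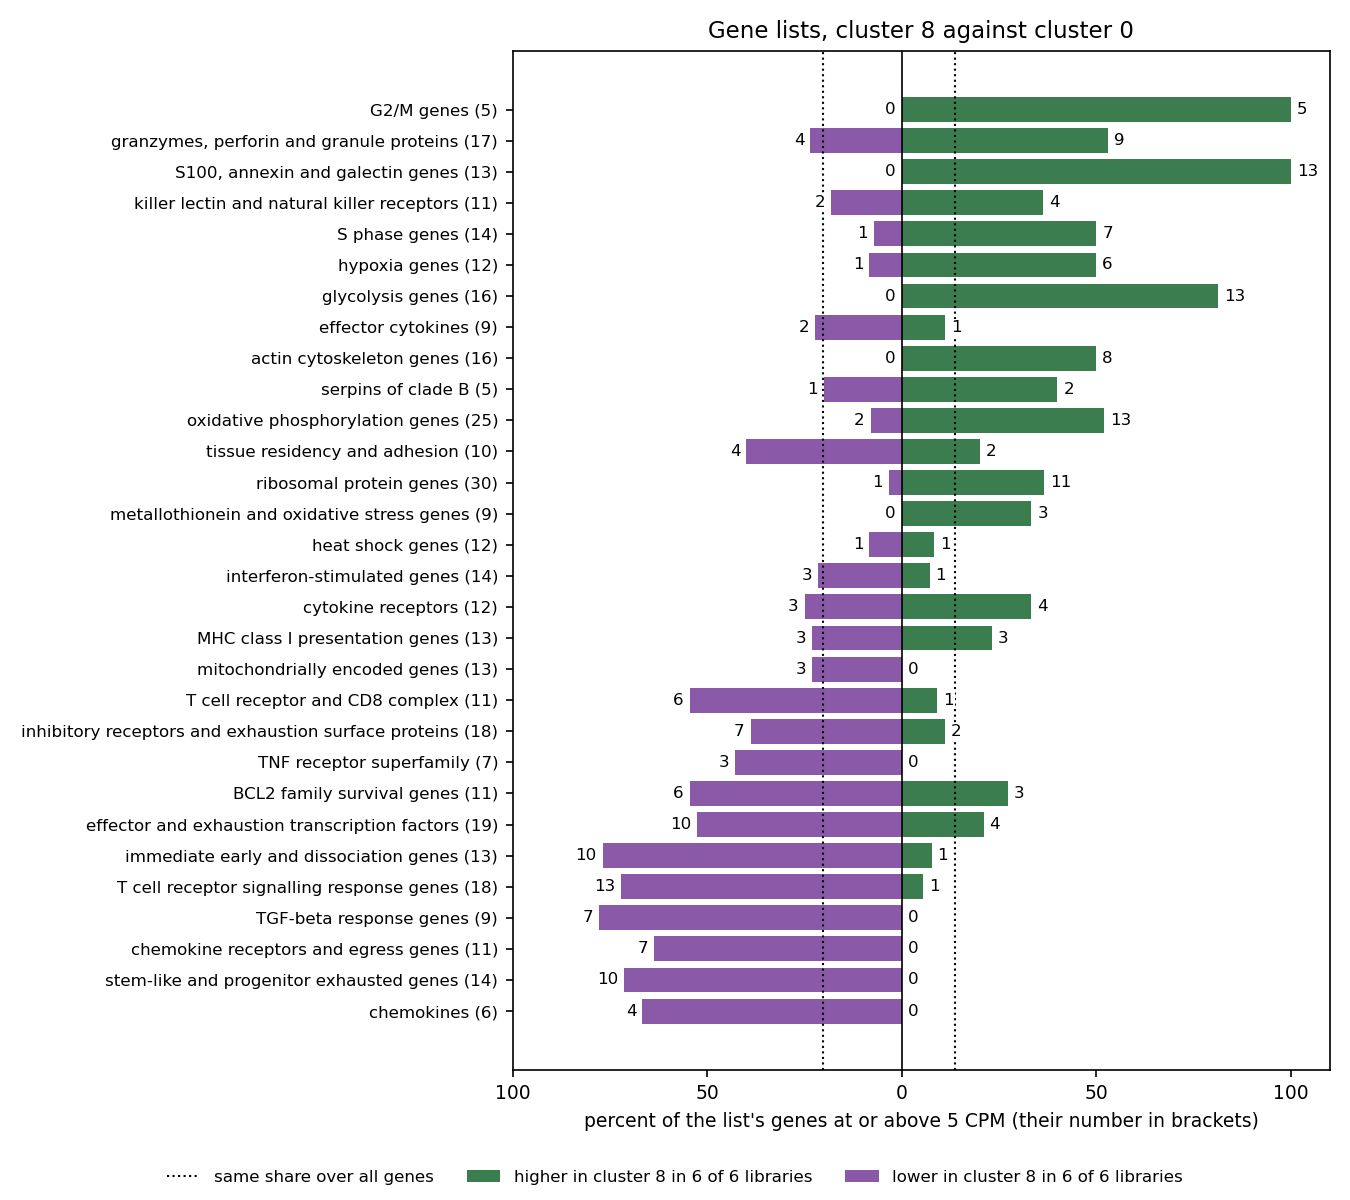
Percent of each gene list that was higher (green, right) or lower (purple, left) in cluster 8 than in cluster 0 in 6 of 6 libraries, out of the members with a mean of at least 5 CPM, whose number stands in brackets. Numbers at the bars are counts of genes, and dotted lines mark the shares over all genes, 13.8% higher and 20.3% lower. Lists with fewer than 5 such members are left out.

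The remaining genes among the 15 furthest apart on each side belong to no list or to lists described above. Higher in cluster 8 were Ltb4r1, a leukotriene B4 receptor gene (3.24 ± 0.77), Emilin2, an extracellular matrix glycoprotein gene (3.04 ± 0.61), and Spp1, the osteopontin gene (2.59 ± 0.73). Spp1 overlapped, with 6.59 CPM in female library 2 against 21.4 to 82.7 CPM in the other 5 libraries of cluster 8. Lower were Cnih2 (-2.53 ± 0.58), Ecm1 (-2.20 ± 0.31), Il10, an anti-inflammatory cytokine gene (-2.15 ± 1.12), Tg (-2.08 ± 0.57), Pacsin1 (-1.86 ± 0.39) and Marcksl1 (-1.79 ± 0.39). Pou2f2, a lymphocyte transcription factor gene (-1.78 ± 0.26), Tnip3 (-1.68 ± 0.31), Cxcr4, a chemokine receptor gene (-1.64 ± 0.43), and Serpinb1a, a protease inhibitor gene (-1.61 ± 0.49), complete the 15. Serpinb9b, of the serpin family that includes inhibitors of granzyme B, went the other way at 2.24 ± 0.41.

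Against each of the other deposited clusters, cluster 8 was nearest to cluster 0, by the number of genes set apart (181) and by the correlation of mean log2 levels across genes (r = 0.977, a description over genes that are not independent replicates). Cluster 5 came next with 60 genes higher in cluster 8 (0.712% of those compared) and 342 lower (4.06%), and the most distant was cluster 6, with 1760 higher (20.6%) and 1304 lower (15.2%). Cluster 5 and cluster 3 hold cycling cells, and cluster 6 has low-depth cells (median 1742 UMIs and a mitochondrial share of 30.0%). Higher in cluster 8 were 4.06% of genes against cluster 1, 7.62% against cluster 2, 1.56% against cluster 3, 5.05% against cluster 4, 8.45% against cluster 7, 3.19% against cluster 9 and 16.1% against cluster 10. Lower were 3.83%, 7.22%, 7.75%, 7.63%, 7.23%, 4.65% and 4.51%, in the same order of clusters. The 5 granzymes were not found in cluster 8 alone. Gzmf averaged 3247 ± 1132 CPM in cluster 8, against 4344 CPM in cluster 6, 1043 CPM in cluster 5, 777 CPM in cluster 3 and 240.3 CPM in cluster 9, and lay between 16.3 and 149 CPM in the other 6. Gzmg was highest in cluster 6 as well, at 712 CPM. So were Gzma, Gzmb and Prf1, at 3572, 15170 and 963 CPM in cluster 6 against 2358, 8847 and 562 CPM in cluster 8. Tcf7, at 7.89 ± 4.28 CPM, and Ccr7, at 10.8 ± 5.84 CPM, were lower in cluster 8 than in any other cluster.

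Of 4928 genes with at least 20 CPM in cluster 8, 470 were highest there, 21 of them by 1.5 times the next cluster or more. Over a shared set of genes, a cluster is highest for 1 gene in 11 on average. The 470 lie close to that share, so the count alone does not mark out cluster 8. By that ratio the first 12 were Gstm5, Ppp1r3b, a regulator of glycogen synthesis, Gstt1, Ifitm3, Ndrg1, Fam71b, Filip1, S100a4, Epas1, Serpinb9b, Pkp3, a desmosome protein gene, and a, the agouti gene. Gstm5 stood at 2.69 times the next cluster and Ppp1r3b at 2.28 times, with 32.1 ± 7.01 CPM in cluster 8 and 14.0 CPM in cluster 10. Of 5156 genes with at least 20 CPM over the clusters, 330 were lowest in cluster 8, fewer than 1 in 11. Among the first of these by ratio were Ccr7, Tcf7, Dapl1, Tnfsf8 and Cxcl10. With the low-depth clusters 6 and 10 left out, an alternative added after the data were seen, 708 genes were highest and 513 lowest in cluster 8.

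**Figure D4:**
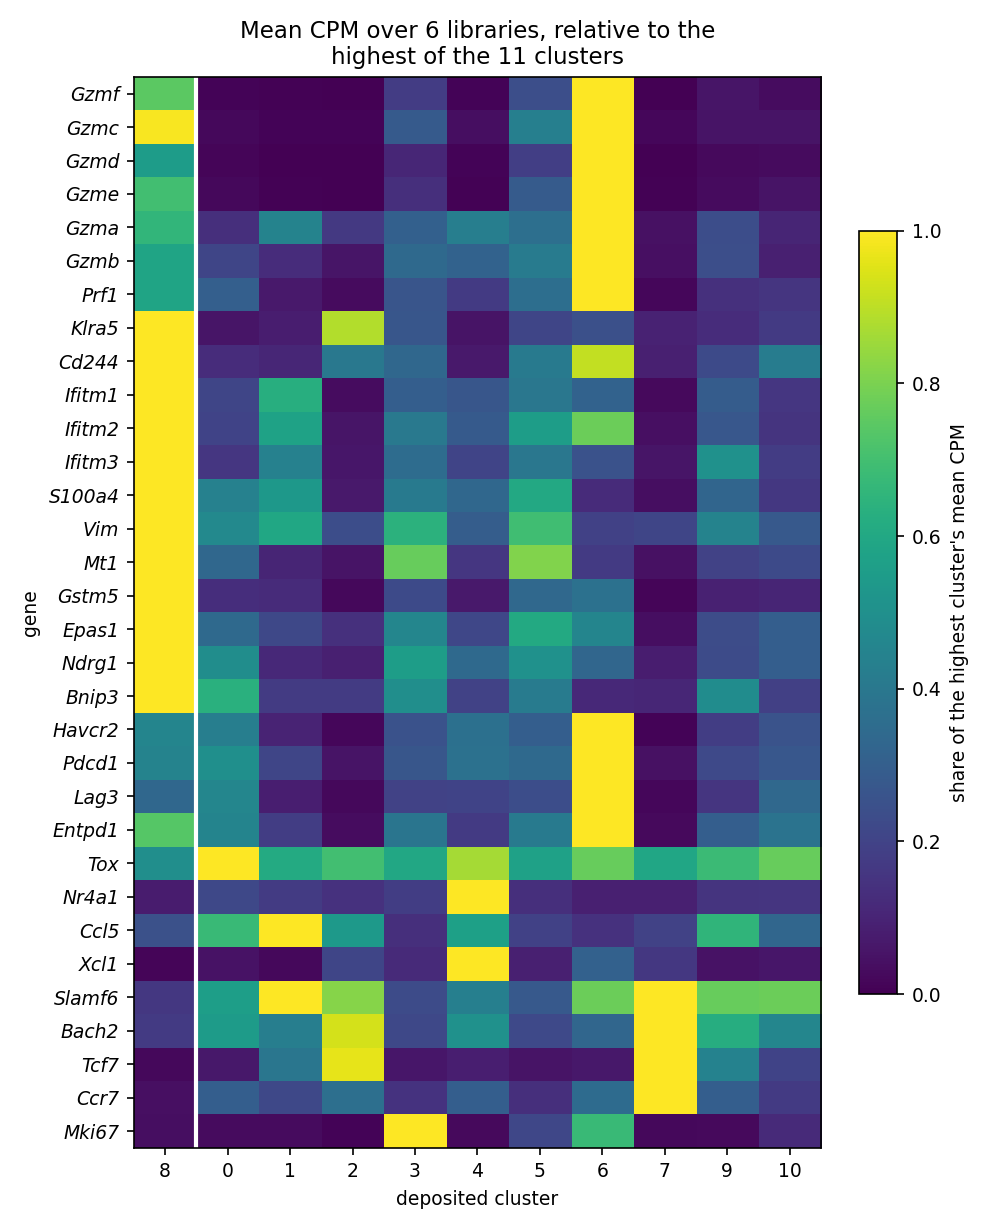
Mean level of named genes (rows) in the 11 deposited clusters (columns, cluster 8 first), each as a share of the gene's highest cluster, from CPM averaged over 6 libraries. Klra5, Cd244, the Ifitm genes, S100a4, Vim, Mt1, Gstm5, Epas1, Ndrg1 and Bnip3 peak in cluster 8. Gzmf, Gzmc, Gzmd, Gzme, Gzma, Gzmb, Prf1, Havcr2, Pdcd1, Lag3 and Entpd1 peak in cluster 6, and Tcf7 and Ccr7 in cluster 7.

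Cycling and other cell types were checked beside these differences. Mki67, a marker of dividing cells, had a UMI in 3.85% of thinned cluster 8 cells and 3.74% of thinned cluster 0 cells. Of 19 G2/M genes, however, 5 passed the level filter, and all 5 were higher in 6 of 6 libraries, led by Ube2c (1.80 ± 0.27). The median log2 ratio was 0.85 for those 5 and 0.23 over all 19. With the 25% of cells with the highest cycle-gene share left out, 89 of the 96 higher genes and 84 of the 85 lower genes were again set apart. The 11 myeloid markers, all in the table, summed to 17.6 to 40.0 CPM in the libraries of cluster 8 and 25.9 to 39.6 CPM in cluster 0, with Lyz2, a macrophage and neutrophil lysozyme, at 1.74 ± 0.89 CPM and Adgre1 at 0 UMIs in cluster 8. B cell markers summed to at most 7.90 CPM, tumour epithelial markers to 10.2 CPM, red blood cell markers to 2.82 CPM and gamma-delta T cell markers to 0.878 CPM in any library of cluster 8. The deposited matrix may hold doublets, whose treatment is not given in the sources used here.

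Between male and female hosts, cells of cluster 8 differed in genes of the sex chromosomes and in no other gene that passed the test. Counts summed over cluster 8 per library were compared with edgeR's quasi-likelihood test, adjusted by Benjamini-Hochberg over 9297 genes and called under 0.05, with log2 differences coded male minus female. Of these, 4 (0.043%) rose in males, all Y-linked, and 5 (0.0538%) fell. Male libraries held 924 UMIs of Ddx3y, 227 of Uty and 213 of Kdm5d, and female libraries 0 of each. Eif2s3y had 1319 UMIs in males and 1 in females, and Xist, which silences an X chromosome, 0 UMIs in males and 7113 in females. The X-linked genes that fell were Kdm6a (22.9 ± 2.73 CPM in males, 49.4 ± 4.04 CPM in females, log2 difference -1.12, edgeR adjusted p = 0.000516), Kdm5c, Eif2s3x, Xist and Tsix, which overlaps Xist on the other strand so that their reads may not be told apart. Every library matched its label on these genes. Outside them, 0 genes passed in edgeR, 302 had an unadjusted p under 0.05, limma-voom called 0 and DESeq2 called 2, Bnip3 and Nfkbia. With 1 library left out, edgeR called 0 to 4 genes outside them, the 4 without male library 3. A p-value here measures the spread between libraries, and the labels call them biological replicates.

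Gzma showed no overlap between the sexes and did not pass. It had 2365, 1158 and 950.3 CPM in male libraries 1, 3 and 4 and 3491, 2592 and 3591 CPM in female libraries 2, 5 and 6. Male library 1 stood closest to the females. The log2 difference was -1.12 (SE 0.42, edgeR unadjusted p = 0.0485, adjusted p = 0.999), and without male library 1 it was -1.63 with an adjusted p of 0.00096. In thinned cells, Gzma had a UMI in 31.1%, 28.3% and 17.6% of cluster 8 cells of male libraries 1, 3 and 4, and in 47.6%, 42.6% and 43.6% of female libraries 2, 5 and 6. Of the granzymes of chromosome 14, Gzmf averaged 3736 ± 1138 CPM in males and 2758 ± 1091 CPM in females (log2 difference 0.43, SE 0.41, edgeR adjusted p = 0.999), and Gzmb 7676 ± 1121 CPM in males and 10018 ± 4233 CPM in females (-0.39, SE 0.31). Both overlapped between the sexes. Gzmk, on chromosome 13 like Gzma, averaged 79.0 ± 20.7 CPM in males and 114 ± 21.1 CPM in females (-0.55, SE 0.19, edgeR adjusted p = 0.999). The separation of Gzma was not limited to cluster 8. In cluster 0 it had 351, 319 and 305 CPM in male libraries 1, 3 and 4. Female libraries 2, 5 and 6 had 777, 521 and 588 CPM there, again without overlap.

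Other genes had smaller unadjusted p-values than Gzma and did not pass. Serpina3f, a serpin gene, had 13.5, 12.2 and 18.6 CPM in males and 4.71, 6.44 and 7.93 CPM in females (log2 difference 1.23, SE 0.24, edgeR adjusted p = 0.084). Prkce, a protein kinase C gene, had 22.5, 18.1 and 19.7 CPM in males and 10.4, 11.7 and 7.17 CPM in females (0.98, SE 0.19, edgeR adjusted p = 0.0963). Neither overlapped. Nfkbia, the inhibitor of NF-kappa B, averaged 401 ± 35.6 CPM in males and 282 ± 14.9 CPM in females (0.50), Exph5 23.4 ± 1.17 CPM and 12.4 ± 3.01 CPM (0.84), and Tcf7 11.1 ± 3.79 CPM and 4.71 ± 1.08 CPM (1.23). Tcf7 had 14.9, 10.9 and 7.35 CPM in males and 5.96, 4.03 and 4.15 CPM in females, on 133 and 60 UMIs, and an edgeR adjusted p of 0.387. Its level in cluster 8 is so low in both sexes that 2.19% or fewer of thinned cells of any library had a UMI.

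Lower in males without passing were Bnip3, Gngt2, Fgl2, Fndc3a and Sgk1. Bnip3 had 79.3, 116 and 80.5 CPM in males and 171, 140.5 and 135 CPM in females (log2 difference -0.70, SE 0.15, edgeR adjusted p = 0.274). In DESeq2 its adjusted p was 0.018. With no filter on low counts, edgeR gave an adjusted p of 0.000911 for Bnip3 and 0.0224 for Gngt2. Sgk1, a kinase gene, averaged 60.5 ± 9.83 CPM in males and 83.6 ± 4.16 CPM in females (-0.47), and Fgl2, a fibrinogen-like protein gene, 112 ± 13.9 CPM and 156 ± 8.13 CPM (-0.49). Of the hypoxia list, all 13 tested members were lower in males, with a median log2 difference of -0.26 and 0 called, against a median of -0.01 over all 9297 genes and 4785 of these lower in males. The Ifitm genes had 0 of 4 called and overlapped between the sexes. In cluster 0 Bnip3 was also lower in males, without overlap, at 61.0 ± 14.3 CPM against 91.5 ± 20.2 CPM in females. Fndc3a and Sgk1 were lower in males without overlap there too, whereas Gngt2 and Fgl2 overlapped.

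**Figure D5:**
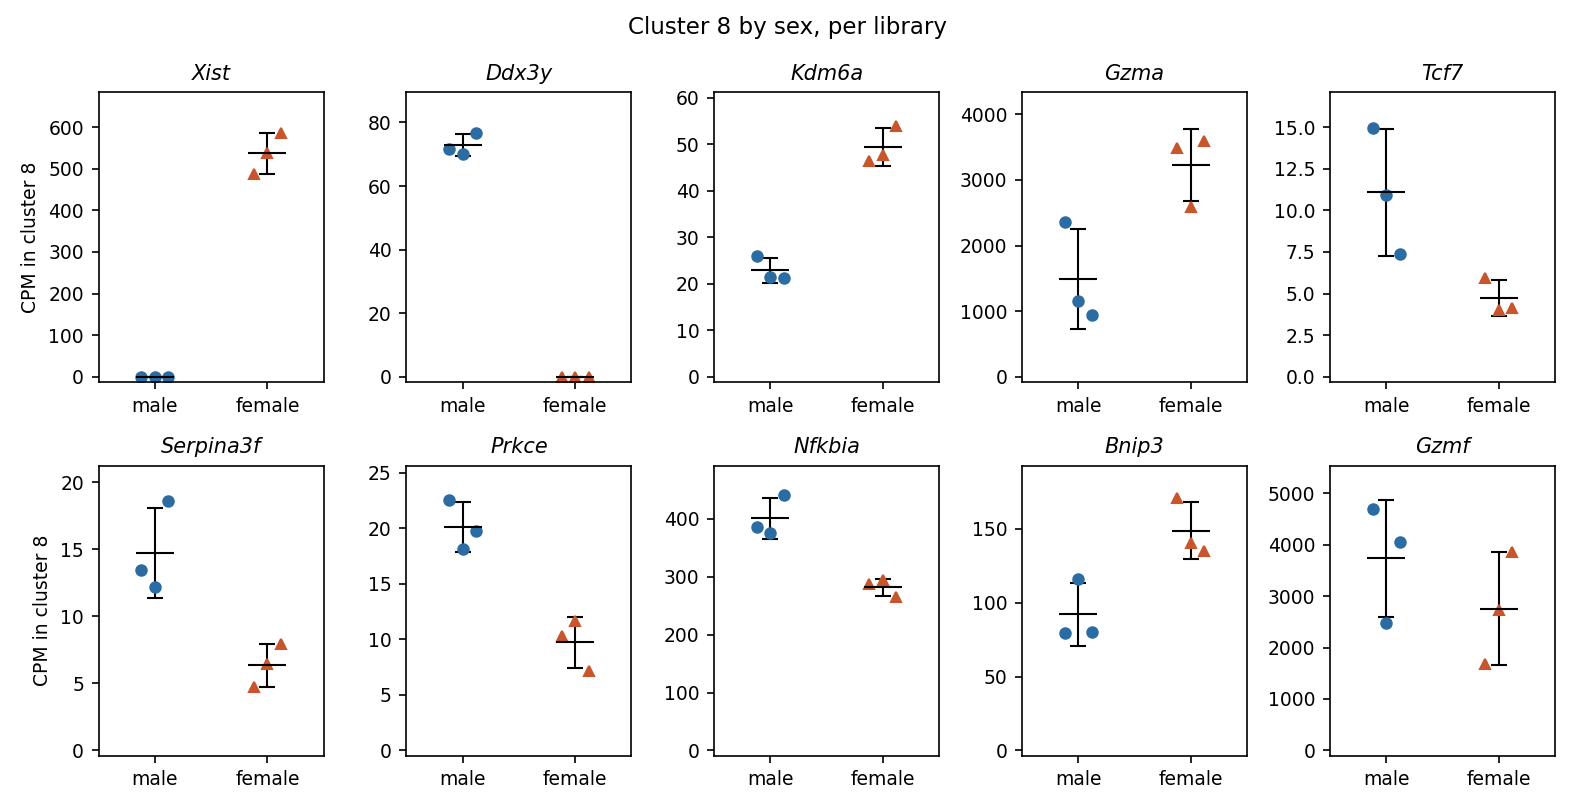
CPM in cluster 8 of male libraries 1, 3 and 4 (circles, left) and female libraries 2, 5 and 6 (triangles, right) for 10 genes, with bars at the mean and SD. Xist, Ddx3y and Kdm6a separate the sexes and passed the test. Gzma, Tcf7, Serpina3f, Prkce, Nfkbia and Bnip3 do not overlap but did not pass, and Gzmf overlaps. Gzma, Tcf7 and Bnip3 do not overlap in cluster 0 either, which is not drawn.

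Whether the difference between the sexes itself differed between cluster 8 and cluster 0 was tested as an interaction, with the library as a block, over 10109 genes. In edgeR 0 genes (0.0%) were called as more positive in males in cluster 8 and 2 (0.0198%) as more negative, Klra9 and Atp1b1, both with few counts, and DESeq2 called 0. In all, 346 genes had an unadjusted p under 0.05. Outside these, the genes first in rank did not pass: Gpm6b at 0.85 (SE 0.17, edgeR adjusted p = 0.151) and Gadd45b, a stress response gene, at 0.41 (SE 0.09) were more positive in males, and Sat1, a polyamine enzyme gene, at -0.41 (SE 0.09) and Eomes, a T-box transcription factor gene, at -0.67 (SE 0.17) more negative. Eomes averaged 31.3 ± 5.81 CPM in males and 38.1 ± 8.04 CPM in females in cluster 8, and 73.3 ± 24.3 CPM in males and 58.6 ± 6.39 CPM in females in cluster 0. On simulated data the interaction fit recovered 44% of log2 changes of 1, so genes that were not called may still differ.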

How the data were processed

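The submitters' processing notes list the build mm10 and the tools Seurat and Cell Ranger, unversioned. Raw UMI counts were deposited for 15601 genes and 26698 cells, and the deposited metadata gives each cell's sex in words, a cluster number and a count of UMIs, which equalled the column sum in every cell. Cell filters, the treatment of doublets and counting options were not stated in the sources. The number after a barcode was taken as the library.

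Counts were summed per cluster and library (66 sums of at least 93 cells) in Python 3.11.15 and fitted in R 4.3.3 with edgeR 4.0.16 (filterByExpr, TMM, robust quasi-likelihood, Benjamini-Hochberg over all genes tested). CPM used TMM factors over all sums, and log2 ratios used a pseudocount of 1 CPM. DESeq2 1.42.0 and limma 3.58.1 were alternatives. Both fits were tested on simulated data of a fixed dispersion, with 200 genes changed by 1 on the log2 scale. The sex fit recovered 87.5% of these with 4 false calls, and the interaction fit 44% with 9 false calls. Clusters were compared without a test. Gene positions are from GENCODE M21 and promoters from RefSeq.

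The cells, gene lists and tests were chosen with earlier results of these data known. Named genes are the 15 furthest apart per direction from cluster 0 (at least 20 CPM, same direction in 6 libraries), the first 12 and 6 by rank over the 11 clusters, up to 5 per direction for sex and interaction, markers and up to 4 per list, of which 1 gene is not reported here. Of 40 lists, those with too few members at 5 CPM have their summed levels given: CD4 and regulatory T cell markers summed to 229 to 702 CPM in the libraries of cluster 8 (206.6 to 594 CPM in cluster 0, largely Tnfrsf4) and fibroblast and endothelial markers to 4.08 to 11.0 CPM (4.70 to 10.6 CPM in cluster 0).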

Additional observations from a re-analysis of the deposited data

Results flagged for a closer look

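In 2 genes the difference between the sexes itself differed between cluster 8 and cluster 0, and both were named after their values were seen, since they lie below the level asked of named genes. Klra9, a Ly49 family receptor gene, had an interaction of -8.24 on the log2 scale (SE 1.21, edgeR adjusted p = 0.00955). It had 1.46, 0 and 0.387 CPM in male libraries 1, 3 and 4 of cluster 8 and 0, 2.01 and 3.40 CPM in female libraries 2, 5 and 6, on 7 and 24 UMIs. In cluster 0 it had 3.74, 0.899 and 2.03 CPM in the male libraries and 0 in each female library, so the size of the fitted value depends on the prior count and is no bound. Klra genes are close copies whose reads may be shared. Atp1b1, a subunit gene of the sodium pump, had an interaction of -3.71 (SE 0.62, edgeR adjusted p = 0.0207). It averaged 1.15 ± 0.85 CPM in males and 4.79 ± 4.82 CPM in females in cluster 8, and 2.04 ± 0.46 CPM in males and 0.574 ± 0.413 CPM in females in cluster 0. Female library 6, at 10.2 CPM, was the highest in cluster 8. DESeq2 called neither, with adjusted p of 0.324 for Klra9 and 0.831 for Atp1b1. Leaving out 1 library at a time, the adjusted p of Atp1b1 ranged from 0.0509 to 0.276, and Klra9 was lost without male library 4, female library 5 or female library 6.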

How the results depend on the processing

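Of the 96 higher and 85 lower genes set apart between clusters 8 and 0, 73 and 69 were set apart again after thinning, and 84 to 93 and 67 to 82 with 1 library left out. The number of genes highest in cluster 8 was 284 without the 25% of cells with the highest cycle-gene share and 708 without clusters 6 and 10, and that of genes lowest was 513 without clusters 6 and 10. The cycle-gene cut left 0 or 1 cells per library in cluster 3 and 8 to 48 in cluster 5. For that reason the 284 cannot be read as an effect of cycling cells within cluster 8. Thinning set the share of cluster 8 cells with a UMI to 35.1% for Gzma, 38.9% for Gzmf, 55.3% for Havcr2, 53.8% for Pdcd1 and 0.953% for Tcf7, against 52.8%, 55.3%, 95.1%, 90.9% and 5.47% before it. With clusters 2, 6 and 10 out of the denominator, cluster 8 held 5.42%, 9.67% and 7.16% of cells in male libraries 1, 3 and 4 and 7.96%, 11.4% and 10.8% in female libraries 2, 5 and 6.

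Genes called between the sexes came to 18 with no filter on low counts, against 9. Outside the sex-linked lists they came to 9 with no filter, 2 in DESeq2, 2 with all clusters in 1 fit and 0 to 4 with 1 library left out, against 0. With no filter they were Bnip3, Gadd45b, Exph5, Tcf7, Gngt2, Nfkbia, Serpina3f, Prkce and 2610020H08Rik. DESeq2 called Bnip3 and Nfkbia, and the fit of all clusters called Basp1 and Prkce. Without male library 3 they were Pgk1, Bnip3, Serpina3f and Erdr1, and without female library 2 Cd244, Ccr7 and Dusp1. Gzma and Ccr2 were called without male library 1, Acat2 without female library 5 and Cdk5rap1 without female library 6. The interaction gave 0 genes in DESeq2, 55 with no filter and 0 to 2 with 1 library left out, against 2. Sex differences that did not pass changed sign with 1 library left out, over -0.62 to 0.000241 for Gzmb, -0.16 to 1.07 for Gzmc, -0.51 to 0.46 for Gzmd, -0.18 to 0.70 for Gzme, -4.24 to 2.04 for Gzmg, -0.22 to 0.17 for Ctsw, -0.052 to 0.19 for Ctsc, -0.47 to 0.14 for Ifitm1, -0.32 to 0.32 for Ifitm3 and -0.28 to 0.14 for Ifitm10. Gzmd, at 0.09, also gave -0.093 in limma-voom and -0.0041 with equal cells per library. The cause was not tested. Kdm5c lost its call without male library 3 or 4 (adjusted p of 0.0759 and 0.134) and Eif2s3x without female library 5 (0.0508).

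No paired analysis was possible because cell names carry library numbers 1 to 6 and not the replicate numbers of the labels. Klra9 rests on 7 UMIs in males and 24 in females of cluster 8.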

Other observations

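The gene groups not yet described are given here for cluster 8 against cluster 0, as descriptions without a test, with log2 ratios as mean ± SD over 6 libraries. Over all genes, 13.8% were higher and 20.3% lower in 6 of 6 libraries. Among survival genes of the BCL2 family, 3 of 11 members that passed the level filter were higher in cluster 8 in 6 of 6 libraries and 6 were lower. Bcl2l11, which encodes the cell death activator BIM, averaged 149 ± 21.3 CPM in cluster 8 and 245 ± 23.9 CPM in cluster 0 (-0.72 ± 0.20), and Bbc3, the PUMA gene, 11.3 ± 1.29 CPM in cluster 8 and 7.21 ± 1.23 CPM in cluster 0 (0.59 ± 0.28). Of the TNF receptor superfamily, 0 of 7 were higher in 6 of 6 and 3 were lower, with Fas, the death receptor, at -1.39 ± 0.31 and Cd27, a costimulatory receptor, at -0.54 ± 0.19. Chemokine receptor and egress genes were lower in 7 of 11 and higher in 0, among them S1pr1, the exit receptor of lymphoid tissue, at -1.09 ± 0.59 and Cx3cr1, the fractalkine receptor, at -1.07 ± 0.49. Cytokine receptors were higher in 4 of 12 and lower in 3, Il12rb1, of the interleukin-12 receptor, at 0.94 ± 0.26. Effector cytokines were higher in 1 of 9 and lower in 2, close to the shares over all genes, as are the lower counts of cytokine receptors and of MHC class I genes.

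Of 30 ribosomal protein genes 11 were higher in 6 of 6 libraries and 1 was lower, with a median log2 ratio of 0.08. MHC class I presentation genes were higher in 3 of 13 and lower in 3, H2-K1 at -0.24 ± 0.15 and the immunoproteasome gene Psmb8 at 0.27 ± 0.10. Heat shock genes were higher in 1 of 12 and lower in 1. The T cell receptor and CD8 complex list was higher in 1 of 11, Cd3g (0.30 ± 0.17), and lower in 6. Mitochondrially encoded genes were higher in 0 of 13 and lower in 3, with a median of -0.09. The third of the metallothionein and oxidative stress genes higher in 6 of 6, beside Mt1 and Mt2, was the thioredoxin gene Txn1 (0.46 ± 0.12). S phase genes were higher in 7 of 14 and lower in 1, Mcm5 at 0.64 ± 0.09. Clade B serpins were higher in 2 of 5 and lower in 1.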
